A study of Mus musculus with 1646 samples.

Results

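Cells of the PdgfrbGFP reporter line on plate 075s were compared with cells of the same line on plate 073s. The comparison was made separately within the deposited clusters 1, 2, 5 and 7, the clusters with 10 or more cells on both plates. On both plates together these clusters held 487 of the 1646 colon cells. Plate 075s gave 94, 17, 110 and 28 cells in clusters 1, 2, 5 and 7, plate 073s gave 10, 81 and 36 in clusters 2, 5 and 7, and cluster 1 of 073s held the remaining cells. A gene was counted as higher or lower on 075s where its log2 ratio of 075s to 073s was at least 1, or at most -1, in each of the 4 clusters. Of 5466 genes past a filter on low levels, 30 were higher and 12 were lower. *Fos*, *Egr1* and *Atf3* were the marker genes by which the plate was singled out. Because the genes were chosen by these ratios, the ratios of the 42 genes are a description.

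The series holds single cells of the mouse colon from 4 reporter lines, PdgfrbGFP, PdgfraGFP, Acta2GFP and Cspg4dsRED, on 9 plates. They were sequenced with SmartSeq2, a method that amplifies cDNA primed from the poly(A) tail and gives reads over whole transcripts. All cells compared here came from male PdgfrbGFP mice of 10 to 20 weeks, in which a *Pdgfrb* transgene drives GFP, and the labels give no treatment. The tissue was digested with a muscle dissociation kit and added collagenase, and GFP-positive cells negative for CD31, an endothelial surface protein, were sorted into the wells. In the study's annotation cluster 7 is fibroblasts of the crypt base, cluster 5 of the base to the middle, cluster 1 of the middle and cluster 2 of the apex under the epithelium. The labels name the plate but no mouse or day, so plate, animal and handling cannot be told apart. With 1 plate a side there is no replicate, and no p-value was computed.

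Immediate early genes are transcribed within minutes of a stimulus by factors already present in the cell, and their mRNAs are short-lived. They encode transcription factors, such as the AP-1 proteins FOS and JUN and the zinc-finger protein EGR1, and regulators that switch the same pathways off. Growth factors, stress, mechanical force and the enzymatic dissociation of tissue are known to induce them.

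Promoters of immediate early genes often hold a cyclic AMP response element (CRE, TGACGTCA) or a CArG box, the sites of CREB and serum response factor. Of the 30 higher genes, 25 had a window in the RefSeq promoter table (GRCm38.p6), and 3 of these held a CRE on either strand within 250 bases before the start site (12%, beside 3.06% of 4250 genes past the filter). These 3 stretches are shown because they belong to genes that were higher in all 4 clusters. Capitals mark the CRE, in *Btg2* (chr1:134079288-134079347, minus strand), *Plk2* (chr13:110394956-110395015, plus strand) and *Ppp1r15a* (chr7:45526269-45526306, minus strand), and it ends 55 bases before the start in *Plk2* and 5 in *Ppp1r15a*.
Btg2: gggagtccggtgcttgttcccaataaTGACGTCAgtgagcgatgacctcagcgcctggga
Plk2: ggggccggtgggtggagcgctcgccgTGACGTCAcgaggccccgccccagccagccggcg
Ppp1r15a: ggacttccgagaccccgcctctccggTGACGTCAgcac
The core TGACG, which lies within the full CRE, was found in 13 of the 25 genes (52%, beside 33.2%), *Fos*, *Fosb*, *Atf3*, *Junb* and *Nr4a1* among them. The EGR site GCGNGGGCG was in 6 (24%, beside 11.2%), the TATA box TATAAA on the coding strand in 6 (24%, beside 4.49%), the AP-1 site TGANTCA in 3 (12%, beside 5.27%) and the CArG box in 1, *Zfp36* (4%, beside 1.48%). Of the 12 lower genes 10 had a window. Of these 50% held the core, 20% the EGR site and 10%, *Lrrc8a*, the full CRE, shares near those of the higher genes, and 0 held the TATA box, the AP-1 site or the CArG box. A match describes letters in a window and is not a measured site.

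Levels are counts summed over the cells of a plate and cluster and scaled to 500000 counts on genes, and 1 was added to both levels before a ratio was taken. The sums held 29693569, 6358583, 35712771 and 10185449 counts in clusters 1, 2, 5 and 7 of 075s and 40472113, 4504842, 32117821 and 20797437 on 073s. The median cell had 289067 counts and 8114 detected genes on 075s and 292990 counts and 7045 genes on 073s. Spike-in RNA took a median of 1.57% and 1.36% of counts. In cluster 7 the median depth was 339322 counts on 075s and 511388 on 073s. Over all genes past the filter the median log2 ratio was -0.07, -0.14, -0.11 and -0.12 in clusters 1, 2, 5 and 7, and unless stated otherwise values follow this order of clusters. All 20 genes of the fibroblast list passed the filter, none passed the fold in all 4 clusters, and their median log2 ratio was 0.02, -0.13, 0.03 and 0.22.

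*Fos* and *Atf3* were past the fold in all 4 clusters and *Egr1* in 3. *Fos* (chromosome 12, 85473890 to 85477273, GRCm38) encodes an AP-1 subunit. It had 185.1, 636, 372 and 341 counts per 500000 on 073s and 1342, 1881, 1666 and 1178 on 075s, which are log2 ratios of 2.85, 1.56, 2.16 and 1.79. The exact 95% Poisson intervals of the levels were 182.1 to 188.1 and 1333 to 1352 in cluster 1 and 619 to 652 and 1857 to 1905 in cluster 2. They cover counting error only, since reads without molecular identifiers are not independent molecules.

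A summed level cannot tell fewer expressing cells from less RNA per cell, so levels are also given by cell. In cluster 1 the lowest, median and highest cell had 192.8, 1249 and 4008 counts per 500000 of *Fos* on 075s and 0, 43.9 and 3844 on 073s. In cluster 5 they had 396, 1745 and 3444 on 075s and 4.16, 258.1 and 2793 on 073s. Every 075s cell thus held *Fos*, and the ranges overlapped because some 073s cells also reached high levels. The share of 073s cells above the 075s median was 2.70%, 20%, 1.23% and 5.56%.

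*Egr1* (chromosome 18, 34859823 to 34864984) had 270.3, 1071, 616 and 615 counts on 073s and 1052, 2066, 1811 and 1549 on 075s. Its log2 ratios were 1.96, 0.95, 1.56 and 1.33, so it lay just outside the fold through cluster 2 and is not among the 30 genes. In cluster 2 the median cell of 073s already had 1546 counts, beside 2373 on 075s. The lowest cell had 190.7, 1139, 525 and 597 counts on 075s and 7.38, 26.3, 3.33 and 11.4 on 073s.

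*Atf3* (chromosome 1, 191170296 to 191218039, minus strand) encodes a stress-induced factor of the ATF family. It had 5.30, 20.1, 38 and 37.5 counts on 073s and 114.7, 338, 248.1 and 189.2 on 075s, log2 ratios of 4.20, 4.01, 2.68 and 2.30. On 075s the lowest, median and highest cell had 4.17, 33.4 and 1011 counts in cluster 1 and 7.40, 64.6 and 1694 in cluster 5. The median lay far below the highest cell, and yet each cell of 075s held at least 1 read of *Atf3*. On 073s 69.3% of cells did (95% Clopper-Pearson interval 63 to 75.1), and after thinning each cell to 50000 counts the shares were 95.2% on 075s and 30.7% on 073s.

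**Figure D1:**
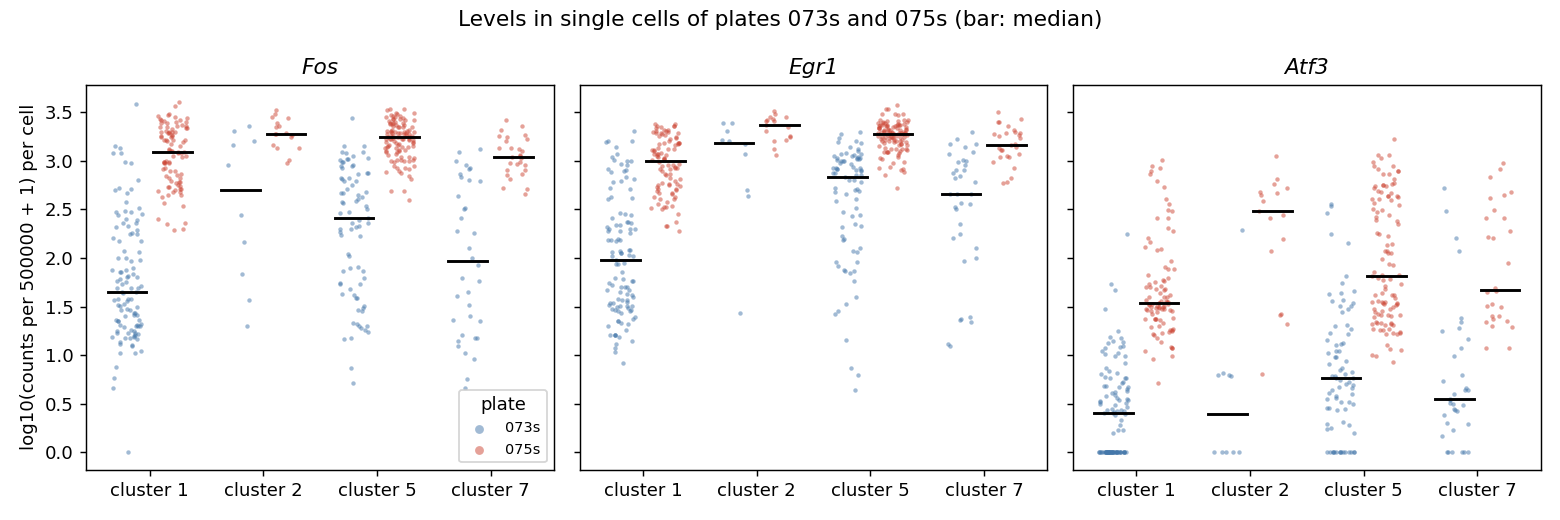
Levels of *Fos*, *Egr1* and *Atf3* in single cells of plates 073s (blue) and 075s (red), by cluster. The vertical axis is log10 of counts per 500000 plus 1, points are cells and bars are medians. In cluster 1 the median of *Fos* is 43.9 on 073s and 1249 on 075s.

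As background for the counts below, 0.549% of the 5466 genes were higher in all 4 clusters and 0.22% were lower. In single clusters 4.56% were at least 2-fold higher and 6% lower in cluster 1, 21.6% and 25.1% in cluster 2, 4.68% and 6.68% in cluster 5, and 8.76% and 14.4% in cluster 7. The shares were largest in cluster 2, which had the fewest cells.

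The immediate early list held 90 genes in 4 roles. Of these 59 passed the filter, 16 were higher in all 4 clusters and 1, *Spry2*, was lower. The list holds the markers *Fos*, *Egr1* and *Atf3* and was written with earlier results of these data known. Its counts and medians are therefore a description and no independent result. A gene near 0 on 073s could pass the filter through 075s alone, so the genes past it are not a neutral sample of the list. In clusters 1, 2, 5 and 7, 33, 42, 32 and 25 genes were at least 2-fold higher and 1, 1, 1 and 4 at least 2-fold lower. The median log2 ratio was 1.21, 1.73, 1.21 and 0.72, lowest in the crypt base fibroblasts of cluster 7. A further 13 genes were at least 2-fold higher in 3 of the 4 clusters, *Egr1*, *Egr2*, *Ier2*, *Dusp1*, *Socs3* and *Klf4* among them, and 9 were so in none. No share over all genes is given for 3 of the 4 clusters or for none, so both counts are a description only.

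Of 11 AP-1 and ATF genes, 8 passed the filter and 5 were higher in all 4 clusters. *Fosb*, a close relative of *Fos*, had 16.3, 176.1, 22.9 and 10.4 counts on 073s and 200.7, 1133, 191.2 and 174.5 on 075s. Its weakest log2 ratio, 2.68, was the largest among the 30 genes. *Jun*, the main partner of FOS, had 189.6, 707, 230.8 and 311 counts on 073s and 1062, 1910.2, 1154 and 729.7 on 075s. *Junb*, another AP-1 subunit, had log2 ratios of 2.21, 1.55, 1.51 and 1.21. Other members did not pass. *Jund* had log2 ratios of 1.69, 0.87, 1.33 and 0.68 and *Fosl2* of 0.01, -0.10, 0.39 and 0.68.

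Of 26 other immediate early genes, most of them transcription factors, 19 passed the filter and 4 were higher throughout. *Nr4a1*, an orphan nuclear receptor, had 148.9, 266.5, 128.96 and 113.98 counts on 073s and 566, 2058, 968 and 813 on 075s. In cluster 2 the lowest, median and highest cell had 1006, 1979 and 4713 counts on 075s and 1.67, 23.2 and 2211 on 073s. The 073s sum thus came from a few high cells, while each 075s cell of the cluster was high. *Ier3* had log2 ratios of 3.24, 3.07, 2.78 and 1.26. *Csrnp1* had 0.766, 0.444, 11.9 and 4.54 counts on 073s and 28.1, 149.96, 36.7 and 49.4 on 075s. *Cebpd*, a bZIP factor and glucocorticoid target, was just inside the fold with log2 ratios of 1.05, 1.07, 1.21 and 1.14. *Ier2* missed the fold in cluster 2, at 0.92, and *Klf10* had -0.73, -0.39, 0.15 and 0.48.

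Of 28 feedback regulators, 23 passed the filter, 5 were higher throughout and *Spry2* was lower throughout. *Btg2*, an anti-proliferative cofactor of mRNA deadenylation that carries the first CRE shown above, had 39.6, 68.5, 55.5 and 45.5 counts on 073s and 223.6, 541, 387 and 229.6 on 075s. *Ppp1r15a*, the stress-induced subunit of the eIF2alpha phosphatase, had log2 ratios of 2.03, 2.10, 2.03 and 1.61. *Zfp36*, whose product destabilizes AU-rich mRNAs, had 2.10, 2.47, 1.72 and 1.14. *Gadd45b*, a growth arrest and stress gene, had 2.32, 3.12, 1.86 and 1.82 and *Nfkbiz*, a regulator of NF-kappaB, had 4.17, 2.50, 4.64 and 1.83. Their relatives on the list did not pass the fold in all 4 clusters, with 1.79, 2.65, 1.504 and 0.56 for *Gadd45g*, 1.14, -0.30, 1.28 and -1.26 for *Gadd45a* and 1.26, 2.70, 0.78 and 1.10 for *Nfkbia*. *Dusp1*, a phosphatase of MAP kinases, had 140.5, 371, 443 and 580.3 counts on 073s and 691, 1064, 1078 and 909.6 on 075s, and cluster 7, at 0.65, kept it out of the 30.

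*Spry2*, an inhibitor of receptor tyrosine kinase signalling, ran the other way. It had 59.6, 105.6, 44.1 and 68.1 counts on 073s and 13.3, 22.4, 8.05 and 22.8 on 075s. The share of 073s cells above the 075s median was 88.3%, 100%, 87.7% and 91.7%. In cluster 2 the lowest 073s cell had 62.2 counts, where the median 075s cell had 15.1.

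Of 25 secreted and surface early genes only 9 passed the filter, and 2 were higher throughout. *Ccn1*, a matricellular protein, had 121.1, 175.4, 211.8 and 278.8 counts on 073s and 596, 656, 785 and 786 on 075s. *Ptgs2*, the inducible cyclooxygenase, had 18.7, 489, 12.1 and 6.59 counts on 073s and 99.6, 1359.9, 44.6 and 69.8 on 075s, highest in the apex cluster 2 on both plates. *Vcam1*, an adhesion receptor, had log2 ratios of 0.44, 0.07, 0.18 and 0.20.

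**Figure D2:**
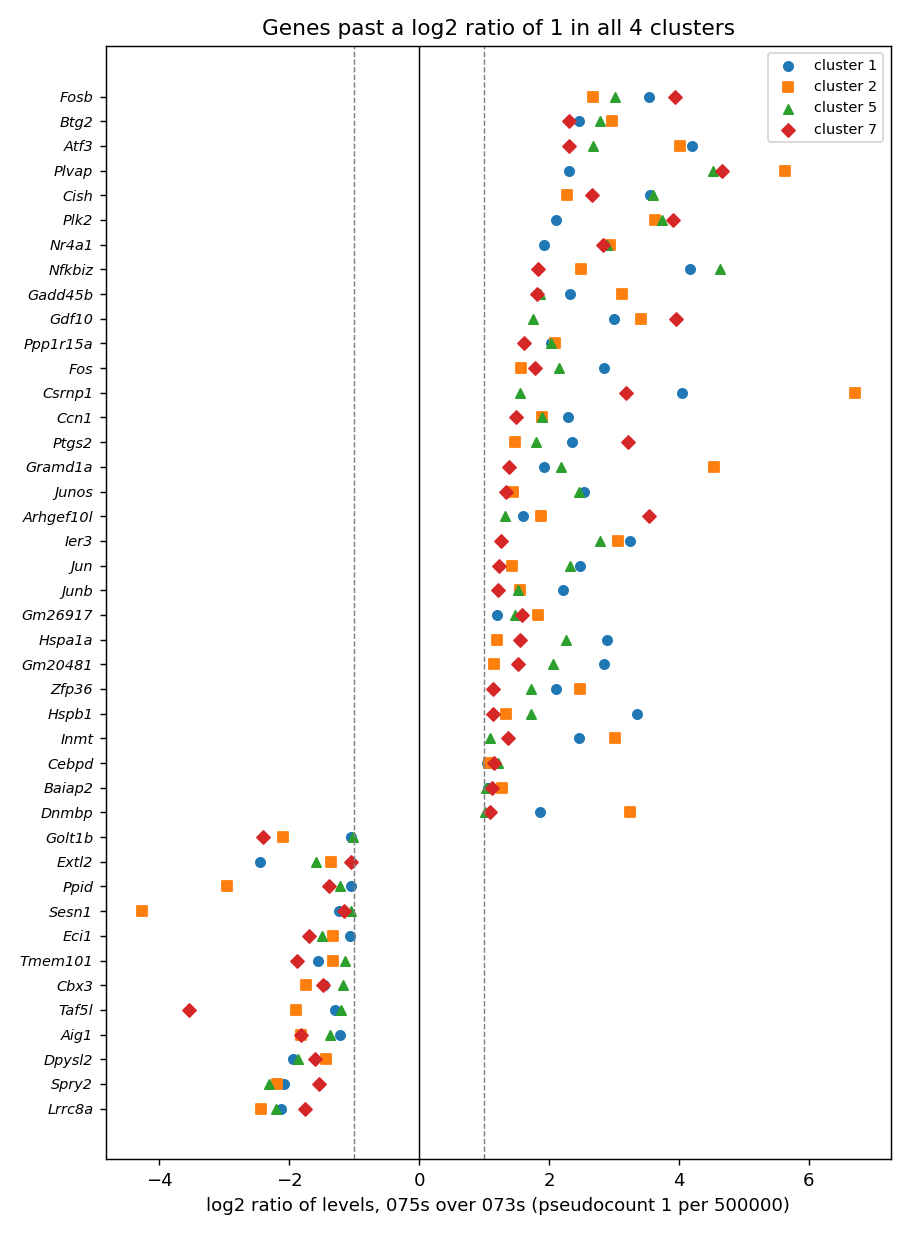
Log2 ratios of 075s to 073s in each of the 4 clusters (symbols) for the 30 genes higher and the 12 genes lower in all 4, ordered by the weakest ratio, with dashed lines at -1 and 1. *Fosb* leads the higher genes with a weakest ratio of 2.68, and *Lrrc8a* the lower ones with -1.76.

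Of 16 dissociation-related genes that had been chosen in earlier work on these data, 10 were higher in all 4 clusters, which is not independent evidence of a direction.

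Of 20 heat shock genes, 18 passed the filter and 2 were higher in all 4 clusters, and the median log2 ratio of the list was 0.42, 1.03, 0.51 and 0.39. *Hspa1a*, an inducible HSP70, had 86.2, 383, 111.4 and 156.2 counts on 073s and 649, 877, 535 and 462 on 075s. *Hspb1*, a small heat shock protein, had log2 ratios of 3.35, 1.34, 1.73 and 1.14. *Hsp90ab1*, the member with the highest level, had 0.42, 0.44, 0.15 and 0.30. *Hspa1b*, a near-identical copy of *Hspa1a*, had 1.98, -0.95, 0.62 and 1.33, and reads shared between the copies make both uncertain. No strand setting is given for the counts, so *Gm20481*, opposite *Hspa1a*, and *Junos*, opposite *Jun*, cannot be told apart from their partners. *Cish*, *Ppp1r15a*, *Csrnp1*, *Gramd1a*, *Junb*, *Zfp36* and *Cebpd* overlap exons of genes on the other strand too.

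No gene past the fold in all 4 clusters was found in the lists for the unfolded protein response (14 genes past the filter), oxidative and metal response (7), hypoxia (5), interferon response (12), cytoskeletal targets of serum response factor (12), the circadian clock (9), the cell cycle (3), mitochondrial (9) or ribosomal protein genes (84). Beside a background of 0.549% and 0.22%, 0 of so few genes is no result about these lists. In the circadian clock list 0, 6, 1 and 3 of 9 genes were at least 2-fold higher in clusters 1, 2, 5 and 7, and 1 was at least 2-fold lower in each. Its median log2 ratio was -0.03, 1.21, 0.22 and 0.57, and it shares *Bhlhe40* and *Nfil3* with the immediate early list. Of 8 glucocorticoid targets past the filter only *Cebpd* was past the fold in all 4 clusters, but 4, 6, 6 and 3 were at least 2-fold higher in the single clusters and the median log2 ratio was 0.70, 1.30, 1.28 and 0.78. The glucocorticoid list shares *Dusp1*, *Sgk1*, *Errfi1*, *Klf9* and *Cebpd* with the immediate early list, so its values are not separate from those of that list. *Malat1*, a nuclear long non-coding RNA, had 677, 611, 586 and 569.9 counts on 073s and 1159, 1069, 1010.4 and 953 on 075s, log2 ratios of 0.77, 0.81, 0.78 and 0.74. Of the cell cycle list, *Cdkn1a*, an inhibitor of the cycle, had 0.88, 3.34, 1.85 and 1.502, *Ccnd1*, a cyclin of the G1 phase, had -0.37, -3.08, -0.61 and -0.75, and *Pcna*, the sliding clamp of DNA replication, had 0.47, -0.65, -0.39 and -0.69. *Hsp90b1*, a chaperone of the endoplasmic reticulum, had 0.05, -0.43, 0.01 and 0.29, and *Actb* had 0.24, 0.35, 0.24 and 0.19.

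**Figure D3:**
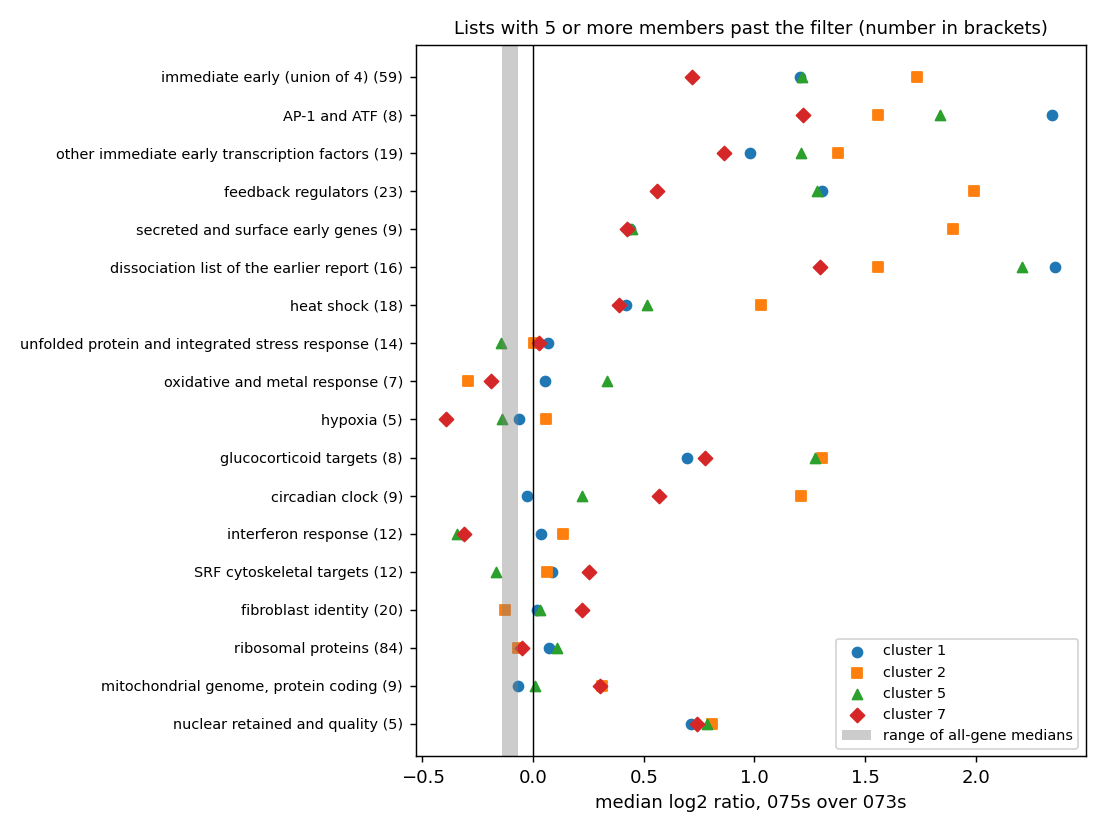
Median log2 ratio of 075s to 073s for each list with 5 or more members past the filter, by cluster (symbols), with the range of the medians of all genes as a grey band. The immediate early list as a whole lies at 1.21, 1.73, 1.21 and 0.72 in clusters 1, 2, 5 and 7, and the ribosomal protein genes at 0.07, -0.07, 0.11 and -0.05.

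The other higher genes were not on the immediate early list, and absence from it does not show that a gene is not induced early. *Cish*, an inhibitor of cytokine receptor signalling, had 3.90, 15.4, 1.32 and 2.57 counts on 073s and 56.9, 78.9, 27.2 and 21.6 on 075s. *Plk2*, a polo-like kinase that carries the second CRE shown above, had 15, 38.3, 0.934 and 0.433 on 073s and 68.1, 488, 24.8 and 20.4 on 075s. *Gdf10*, a ligand of the TGF-beta family, was highest in cluster 5 on both plates, with 2.72, 2.33, 153.8 and 1.90 counts on 073s and 28.8, 34.4, 520.2 and 43.9 on 075s. *Inmt*, a methyltransferase, was also highest in cluster 5 on both plates, with 6.97, 4.77, 249.4 and 24.4 counts on 073s and 42.8, 45.6, 530.5 and 64.7 on 075s. *Gramd1a*, *Arhgef10l*, *Gm26917*, *Baiap2* and *Dnmbp* complete the 30, with weakest log2 ratios of 1.38, 1.32, 1.20, 1.04 and 1.01. Just outside lay *Sh3pxd2b* (0.99) and *Prrt2* (0.98) beside *Egr1*.

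Of the 12 lower genes, *Lrrc8a*, the essential subunit of the volume-regulated anion channel, had the strongest weakest ratio. It had 53, 142.3, 93.4 and 82.7 counts on 073s and 11.4, 25.6, 19.5 and 23.8 on 075s. *Dpysl2*, a microtubule-binding protein, had 227.9, 89.8, 303.02 and 357 on 073s and 58.6, 32.5, 82.3 and 116.6 on 075s. Its median cell in cluster 1 had 177.7 counts on 073s and 31.3 on 075s. *Aig1*, *Taf5l*, *Cbx3*, *Tmem101*, *Eci1*, *Sesn1* and *Ppid* had weakest log2 ratios of -1.22, -1.20, -1.17, -1.14, -1.06, -1.05 and -1.05. *Aig1*, *Taf5l*, *Tmem101*, *Eci1*, *Sesn1*, *Extl2* and *Golt1b* lost the call with the mean over cells, in thinned cells and without the cell with the highest count, and *Ppid* lost it with the mean and without that cell. *Eci1*, *Extl2*, *Golt1b* and *Ppid* also lost it with TMM and with DESeq2's factors, and *Tmem101* with the latter. The median cell of *Aig1* in cluster 1 had 2.38 counts on 073s and 2.41 on 075s, and *Taf5l* in cluster 2 was seen in 3 of 10 cells of 073s and 9 of 17 of 075s. *Extl2* (-1.04) and *Golt1b* (-1.02) lay just inside, and *Mcm7* (-0.99), *Ss18* (-0.97) and *Vhl* (-0.97) just outside. The weakest ratio of *Extl2* turned positive in rows J to P, and those of *Taf5l* and *Eci1* without the highest-count cell. After thinning, a read of *Lrrc8a* was seen in 47.6% of 075s cells and 74.8% of 073s cells, and before it in 79.9% and 94.1%.

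Many of the higher genes had a short span in the genome. Their median span was 5108 bases, beside 19097 for the lower genes and 21298 for genes past the filter, and 50% of them spanned under 5000 bases, beside 12.7%. Median exonic lengths lay closer together, at 3399.5, 3776 and 4333 bases in the same order. Among 11724 genes with over 300 counts in some cell, none had more than 2 counts per exonic base in any cell and the highest had 1.96. *Fos* reached 1.33, at 3129 counts in 1 cell. The methods name a samtools step that removed what they call doublets, and do not say whether duplicate reads were meant, which would limit the counts of short, abundant genes. Whether the levels of *Fos*, *Jun* or *Egr1* were limited in this way was not tested.

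Plate 075s was chosen for *Fos*, *Egr1* and *Atf3*, which the immediate early list holds, so its place among the plates with 10 or more cells of a cluster is a description of that choice. The summed level of the immediate early list in cluster 1 was 12884 on 075s, 4634 on 073s and 3734 to 8394 on the others. In cluster 5 it was 17238, 6333 and 6001 to 10287, and in cluster 7 13632, 6587 and 5366 to 7747. In these clusters 073s lay within the range of the others. *Fos* on the other plates was 167.7 to 388 in cluster 1, 164.2 to 1011 in cluster 5 and 494 to 641 in cluster 7, so 075s was the highest there, and 073s, at 341, was the lowest in cluster 7.

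In the apex fibroblasts of cluster 2 the order depended on the gene. The summed level was 25186 on 075s, 8149 on 073s and 15069 to 23525 on 3 plates of other lines. *Fos* was 1881, 636 and 1428 to 3075, so that 1 other plate, of the Acta2GFP line, lay above 075s. *Egr1* was 2066, 1071 and 765 to 2392, so that 075s was the third of 5 plates and 073s was not the lowest. Of the 30 higher genes, 075s had the highest level of all plates in 25, 18, 26 and 24 and 073s the lowest in 2, 22, 1 and 8. Of the 12 lower genes, 075s had the lowest level in 4, 4, 2 and 6 and 073s the highest in 1, 9, 2 and 10. These counts follow in part from the choice of the genes on the levels of 075s and 073s and are given as a description.

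**Figure D4:**
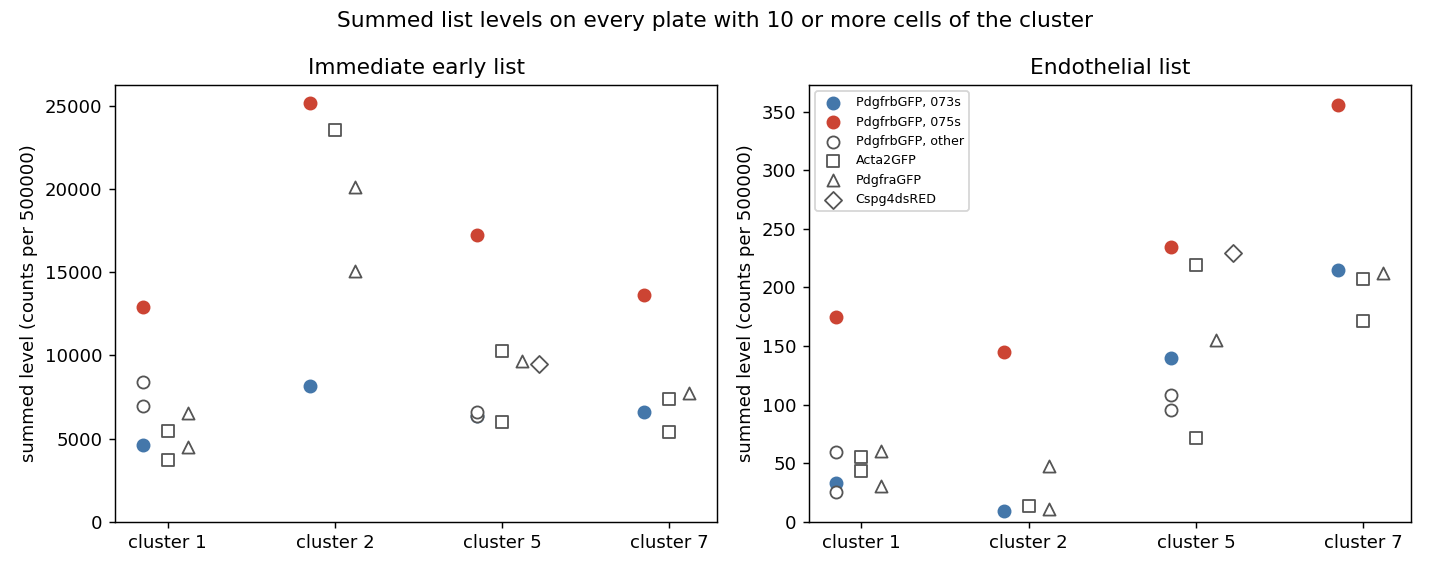
Summed level, in counts per 500000, of the immediate early list (left) and the endothelial list (right) on every plate with 10 or more cells of the cluster, with 075s in red, 073s in blue and other plates as open symbols by line. The immediate early sum of 075s is the highest in each cluster, and in cluster 2 it lies near that of an Acta2GFP plate (25186 and 23525).

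The few cells of both plates outside the 4 clusters, 9 on 075s and 13 on 073s, did not follow the difference. Their summed immediate early level was 12588 on 075s and 14988 on 073s, and *Fos* had 1365 and 1214 counts. These cells are of different clusters on the plates, with 1 and 7 vascular smooth muscle cells of cluster 3 and 5 and 3 pericytes of cluster 4.

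Endothelial transcripts moved with the comparison, although the gate was negative for CD31 and the methods state that cells with an endothelial signature were removed. *Plvap*, which forms the diaphragms of fenestrated endothelium, is one of the 30 genes, with 18.3, 0.333, 2.46 and 1.95 counts on 073s and 94.1, 65.3, 78.6 and 73.9 on 075s. It was seen in every 075s cell, at 13 or more, and in 24.8% of 073s cells. *Pecam1*, which encodes CD31, was seen in 99.6% of 075s cells and 12.6% of 073s cells, at levels of 18.5, 16, 18.7 and 20.7 and 0.321, 0, 0.218 and 0.240. The other plates with 10 or more cells of the cluster had 0.893 to 11.2, 3.10 to 12.4, 1.05 to 12 and 1.15 to 7.89 counts of *Pecam1*, below 075s and above 073s, and 10.5 to 51, 0 to 11.6, 0.916 to 25.1 and 0.145 to 5.02 of *Plvap*, below 075s and on both sides of 073s. *Cdh5* was seen in 39.4% of 075s cells and in 0 cells of 073s, which by 3 counts of the total allows a share of cells with a read of up to 1.26%, and does not limit the share that express the gene.

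The summed level of the 12 endothelial genes, of which *Plvap* alone passed the filter, was 174.4, 145.2, 234.7 and 356 on 075s and 33.1, 8.77, 139.5 and 214.9 on 073s. *Tek* made up much of the sums in clusters 5 and 7, with 11.5, 4.88, 134.1 and 211.5 counts on 073s and 12.6, 5.43, 77.6 and 214.5 on 075s. Over all genes, 8 were seen in at least 95% of 075s cells and at most 30% of 073s cells, and 0 the other way. They were *Plvap*, *Pecam1*, *Egfl7*, *Esam*, *Flt1*, *Sox18*, *Mmrn2* and *Plk2*, most of them known from endothelium. The immune sum was 24.7, 26.3, 35.5 and 19.2 on 075s and 26.7, 1.22, 10.1 and 11 on 073s, higher on 075s in clusters 2, 5 and 7 and not in cluster 1. The epithelial sum was 30.9, 10.9, 18.6 and 68.9 and 95.8, 13.1, 54.6 and 35.6, higher on 075s in cluster 7 alone. *Ptprc*, the pan-leukocyte marker, had 0.0674, 0.157, 0.0700 and 0.0982 counts on 075s and 0.0124, 0, 0 and 0 on 073s. The part of these transcripts in the immediate early result was not tested.

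Cells of 075s came from rows E to P of the plate and those of 073s from all 16 rows, which were filled unevenly. Over all clusters, 50 cells of 073s lay in rows A to D. In columns 1 to 12 of rows A to I there were 11 cells of 073s and 57 of 075s. On 075s column medians of *Pecam1* ranged over 5.72 to 43 counts and row medians over 14.9 to 22. Those of *Fos* ranged over 887 to 2195 and 1246 to 1893. Over 23 columns the Spearman correlation of the endothelial and immediate early medians was -0.42. Over the cells of a cluster on 075s, *Fos* and the endothelial sum had correlations of -0.06, 0.22, 0.13 and 0.26, and *Fos* and *Egr1* of 0.81, 0.61, 0.55 and 0.52. These describe wells and cells that share a plate and a scaling.

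**Figure D5:**
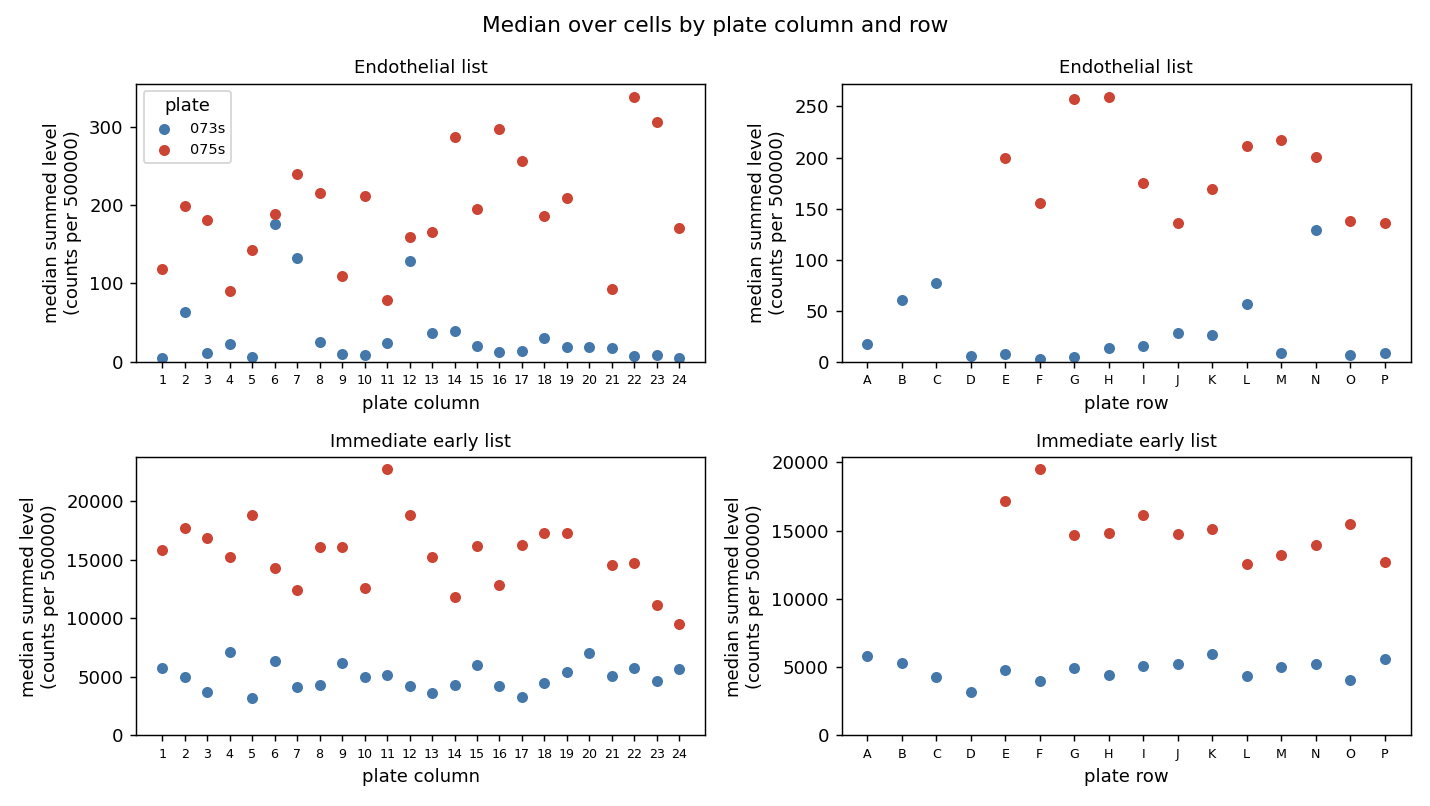
Median over cells of the endothelial (top) and immediate early (bottom) summed level, in counts per 500000, by plate column (left) and row (right) on 073s (blue) and 075s (red). Over columns the immediate early medians range over 9511 to 22731 on 075s and 3170.5 to 7123 on 073s, with no overlap, and the endothelial medians over 78.5 to 338 and 5.05 to 175.4.

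Since some transcripts were found in every 075s cell, the comparison was repeated with the 10th percentile of the 075s cells of a cluster taken from the 075s level, a choice made after seeing the data. Then 17 of the 30 genes and 10 of the 16 immediate early genes were higher in all 4 clusters. *Fosb*, *Atf3*, *Btg2*, *Nr4a1* and *Ppp1r15a* kept their call, and *Fos*, *Jun*, *Junb*, *Zfp36*, *Ptgs2* and *Cebpd* lost it. *Fos* then had a log2 ratio of 0.07 in cluster 2 and 0.71 in cluster 7. The subtraction also takes away what each cell itself expresses and leaves 073s as it is, and the lower genes rose to 55.

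With edgeR's TMM factors all 30 genes were among 34 higher genes, with a mean over cells 25 were among 31, in thinned cells 24 among 32, and in rows J to P 22 among 31. *Jun*, *Hspa1a*, *Gm20481* and *Dnmbp* lost their call with the mean over cells and in thinned cells, with weakest log2 ratios of 0.99 for *Jun* and 0.72 for *Hspa1a* in the mean, and *Hspb1* lost it in the mean at 0.99. In thinned cells *Junos* lost it at 0.81, and *Csrnp1*, at 2.22, no longer passed the filter on levels. In rows J to P *Junb*, *Zfp36*, *Ptgs2*, *Plk2*, *Hspb1* and *Baiap2* fell below the fold, at 0.14 for *Baiap2* to 0.97 for *Junb*, and *Csrnp1* and *Dnmbp*, at 1.25 and 1.16, no longer passed the filter. Of the 12 lower genes, 8 were called again with TMM, 4 with the mean over cells, 5 in thinned cells, 7 in rows J to P and 4 with a pseudocount of 5. *Dpysl2* lost its call in rows J to P, at -0.15, and *Cbx3* with the pseudocount of 5. Without the cell with the highest count of the gene in each sum, 25 of the 30 and 4 of the 12 were called again. The 5 higher genes lost, *Cish*, *Plk2*, *Gramd1a*, *Csrnp1* and *Dnmbp*, kept weakest log2 ratios of 3.09, 2.77, 2.45, 2.16 and 1.15 but no longer passed the filter on levels.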

How the data were processed

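Single-cell counts of plates 075s and 073s were compared, and the other 7 plates gave levels only. The authors demultiplexed reads with bcl2fastq, mapped them to GRCm38 with TopHat2, used samtools to remove what they call doublets, ran featureCounts per gene, and deposited raw counts. Strand is not stated. They removed cells with high gene numbers as potential doublets, and no doublet caller was run here. Clusters and plates come from the labels.

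Counts over 46517 genes (46005 with a symbol in the GENCODE annotation of GRCm38), without spike-in rows, were summed per plate and cluster and scaled to 500000. The filter was a mean of both plates of at least 10 in each cluster. Depth was 47598 to 1382399 counts per cell, and thinning left out 1 cell. With 1 plate a side no p-value was computed. The fold rule was tested on simulated data. Positions are 1-based.

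Named genes are *Fos*, *Egr1* and *Atf3*, the 15 genes of each direction with the strongest weakest ratio, 3 just inside and 3 just outside the fold, immediate early genes by role, and from other lists the called genes and the highest member. *Ccnd1* and *Pcna*, outside these rules, were named beside *Cdkn1a* as the other cell cycle genes past the filter. Other called genes, *Hspa1b*, *Neat1*, *Ptprc*, *Pecam1*, *Cdh5*, *Tek*, *Egfl7*, *Esam*, *Flt1*, *Sox18* and *Mmrn2* were named after their values were seen. Members and lists were chosen with earlier results of these data known. Alternatives were TMM factors (edgeR 4.0.16), DESeq2 1.42.0 size factors, a mean over cells, thinning, other filters, folds and pseudocounts, rows J to P, leaving out cluster 2 or the highest-count cell, and the subtraction.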

Additional observations from a re-analysis of the deposited data

Results flagged for a closer look

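Plate 075s was chosen for its levels of *Fos*, *Egr1* and *Atf3*, so the gaps below restate that choice and are a description, not a test. Over the 4 plates of the PdgfrbGFP line, 3 values of 075s stood apart from the other plates by Dixon's criterion, the gap to the nearest plate divided by the whole range. *Fos* in cluster 1 had 1342 counts per 500000 on 075s and 185.1, 284.8 and 309.9 on the others, a gap of 0.892 of the range. *Fos* in cluster 5 had 1666 and 372, 295.4 and 164.2, a gap of 0.862. The immediate early sum in cluster 5 had 17238 and 6333, 6376 and 6611, a gap of 0.975. *Egr1*, *Atf3*, the endothelial sum and, in cluster 1, the immediate early sum did not pass the criterion, with gaps of 0.544 to 0.823. The chance rate of the criterion, about 1 in 20 groups, holds for plates that were not chosen by these values and so not here, and 2 of the plates held 11 to 19 cells of each cluster.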

How the results depend on the processing

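No paired analysis was possible because the labels number no replicates and each side is 1 plate. The 30 higher, 12 lower and 16 immediate early genes became 17, 55 and 10 after the subtraction, 81, 97 and 25 at a fold of 1.5, and 6, 0 and 3 at a log2 ratio of 2. Higher and lower genes numbered 63 and 40 with a filter at 2 and 130 and 53 with no filter. Lower genes numbered 39 without cluster 2, 20 in rows J to P, 6 without the cell with the highest count of the gene and 4 with a pseudocount of 5. *Egr1* in cluster 2 passed the fold with TMM (1.09), DESeq2's factors (1.02), in rows J to P (1.503) and without the highest-count cell (1.15). After the subtraction it was -0.88, 0.24 and 0.30 in clusters 2, 5 and 7, *Fos* 0.0702 and 0.71 in clusters 2 and 7, and the list's median 0.68 in cluster 5. That median was 0.996 and 0.886 in clusters 1 and 5 in rows J to P, and 0.996 in cluster 1 with a pseudocount of 5. Weakest ratios reversed for *Extl2* in rows J to P (2.09), *Taf5l* (1.96) and *Eci1* (0.11) without the highest-count cell, and *Gm20481* (-0.0186) and *Hspb1* (-0.29) after the subtraction. The cause was not tested. Cluster 2 had 17 and 10 cells on 075s and 073s (8 and 4 in rows J to P).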

Other observations

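*Neat1*, a nuclear long non-coding RNA, had 41.1, 12.9, 36.4 and 23.1 counts per 500000 on 073s and 67.9, 99, 112.3 and 162.8 on 075s in clusters 1, 2, 5 and 7, and missed the fold in cluster 1. Outside cluster 5, *Gdf10* had median cells of 27.8, 38.2 and 29.5 counts on 075s and 1.72, 1.70 and 1.74 on 073s. *Has1* and *Cxcl10*, a hyaluronan synthase and a chemokine, were past the fold in all 4 clusters but under the filter, with log2 ratios of 2.17, 3.06, 2.61 and 1.38 and 4.24, 1.81, 4.88 and 1.38. *Gadd45a*, *Plaur* and *Socs1* were past the fold in different directions in different clusters, with 1.14, -0.30, 1.28 and -1.26, 0.05, 2.38, -0.04 and -1.13 and 1.21, 0.17, 0.19 and -1.84. Cluster 5 made up 42.6% (36.5 to 48.9) of the cells of 075s and 32.3% (26.5 to 38.4) of those of 073s, with 95% Clopper-Pearson intervals in parentheses that cover the sampling of cells within 1 plate only and are no comparison of the plates.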
